A study of Mus musculus with 38 samples.

Results

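The 7 genes that encode the insulin-like growth factor binding proteins (IGFBPs), Igfbp1 to Igfbp7, were followed through 38 kidney RNA-Seq libraries whose count table holds 55487 genes. The members were chosen by gene symbol as a complete family, with results of these libraries already known. Their levels and fold changes are therefore given as a description. Counts of members are set beside the share or number of all genes that passed the same test. All 7 passed the filter on low counts in each of the 3 experiments.

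The study asked whether the hormone fibroblast growth factor 23 (FGF23) acts on diseased kidneys. In the anti-GBM experiment, male C57BL/6JRj mice of 8 weeks were immunised with sheep IgG in Freund's complete adjuvant. They were later given a serum against the glomerular basement membrane, which causes an immune glomerulonephritis. Healthy control mice received PBS instead, so adjuvant and serum cannot be told apart in the disease comparisons. All mice then received recombinant human FGF23 at 1 µg per day for 6 days or vehicle. Libraries came from 4 healthy mice with vehicle, 3 healthy mice with FGF23, 4 anti-GBM mice with vehicle and 3 anti-GBM mice with FGF23. These numbers follow the labels, whereas the study's figure captions give 3 for anti-GBM groups and 4 for healthy groups. In the Adriamycin experiment, female BALB/c mice of the same age were left healthy or were made nephrotic with Adriamycin (doxorubicin) and received FGF23 or vehicle once, with 4 mice in each of the 4 groups. Kidneys of both experiments were removed 24 h after the last injection, at 10 weeks of age, and a fragment of 1 region of each kidney was sequenced. The remaining experiment used precision-cut kidney slices (PCKS) from male DBA/2J mice of 23 weeks fed 0.2% adenine, kept in culture with FGF23 (n = 4) or vehicle (n = 4); no slices of healthy kidney were among the libraries, and the labels do not say which slices share a mouse. The labels give 1 h of treatment for the slices, whereas the study's results text gives 24 h. Its methods give a time in culture medium but none for the treatment itself. Strain, sex, FGF23 schedule and disease all differ between the experiments and cannot be told apart across them.

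IGFBPs are secreted proteins that bind insulin-like growth factors 1 and 2, prolong their life in blood and tissue, and limit or direct their access to the IGF1 receptor. Proteases such as the pappalysins cut them and release the growth factor. Igfbp1 is induced by fasting and cellular stress and repressed by insulin, Igfbp3 encodes the main IGF carrier in blood, and Igfbp7 binds IGF only weakly and is a known marker of tubular stress in urine. The genes often stand as neighbouring pairs that face each other tail to tail.

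Such pairs were present here. Igfbp1 (GRCm38, chr11:7197782-7202546, plus strand) and Igfbp3 (chr11:7206086-7213923, minus strand) were separated by 3539 bases. Igfbp2 (chr1:72824503-72852474, plus strand) and Igfbp5 (chr1:72857932-72874884, minus strand) were separated by 5457 bases. Igfbp4 (chr11:99041244-99054392, plus strand) and Igfbp6 (chr15:102144362-102149511, plus strand) had no member beside them. Igfbp7 (chr5:77349240-77408041, minus strand) overlapped 2 genes on the plus strand, Gm34648 and Polr2b. The libraries were made with a stranded kit, but the strand setting of the counting is not given in the sources used here, so reads shared by Igfbp7 and these genes cannot be assigned with certainty. All 7 are protein-coding genes.

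The 250 bases before the RefSeq start of 3 members are shown because Igfbp1 had the largest difference between FGF23-treated anti-GBM and healthy kidneys, and because Igfbp3 and Igfbp5 were lower in anti-GBM disease with and without FGF23. The sequences are RefSeq promoter windows of GRCm38.p6, written 5′ to 3′ on the strand of the gene. Capitals mark CAAAACAA in Igfbp1, the core of the element through which insulin is known to repress this gene in liver, and each CG dinucleotide in Igfbp3 and Igfbp5.
Igfbp1, chr11:7197537-7197786, plus strand: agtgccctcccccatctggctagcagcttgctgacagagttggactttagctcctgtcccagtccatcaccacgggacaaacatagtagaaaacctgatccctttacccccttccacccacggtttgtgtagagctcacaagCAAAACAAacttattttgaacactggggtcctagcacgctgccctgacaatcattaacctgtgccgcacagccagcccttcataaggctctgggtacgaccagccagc
Igfbp3, chr11:7213924-7214173, minus strand: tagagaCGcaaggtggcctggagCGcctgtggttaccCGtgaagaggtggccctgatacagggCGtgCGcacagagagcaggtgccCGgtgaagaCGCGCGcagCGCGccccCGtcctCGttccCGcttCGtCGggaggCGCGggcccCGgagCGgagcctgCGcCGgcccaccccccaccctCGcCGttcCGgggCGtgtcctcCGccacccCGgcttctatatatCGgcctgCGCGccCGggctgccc
Igfbp5, chr1:72874866-72875115, minus strand: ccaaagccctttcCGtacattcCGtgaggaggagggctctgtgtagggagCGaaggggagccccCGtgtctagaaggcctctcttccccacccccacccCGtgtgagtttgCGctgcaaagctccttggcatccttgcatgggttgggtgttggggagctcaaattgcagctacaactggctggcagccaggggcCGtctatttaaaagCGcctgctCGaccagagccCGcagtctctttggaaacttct

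The letters CAAAACAA, searched on both strands after the Igfbp1 window had been read, began 108 bases before the Igfbp1 start and were in no other of the 8 windows of members (Igfbp2 has 2). They were in 2.21% of the 32851 promoter windows of the table. TATAAA, searched the same way, began 28 bases before the Igfbp4 start on the strand of the gene and stood in the Igfbp6 window on the opposite strand, against 12.4% of all windows with it on either strand. The 2 neighbours on chromosome 11 differed in composition: the Igfbp1 window held 5 CG dinucleotides and the Igfbp3 window 32, where the median of all windows was 6. The other windows held 10 (Igfbp5) to 26 (Igfbp7), apart from Igfbp6 with 7. These are matches of letters only, and nothing was measured of factors bound there.

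The anti-GBM libraries held 13704248 to 23630210 counts each, the Adriamycin libraries 15665050 to 27583911 and the slice libraries 11186925 to 16254987. CPM, the level of a gene as counts relative to the library total, is scaled here by TMM, which corrects for libraries dominated by a few genes. All 6 proximal tubule, 6 podocyte and 3 thick ascending limb markers had reads in every group. The summed level of the proximal tubule markers was 6163 to 14315 CPM in the kidneys of the in vivo experiments and 265 to 653 CPM in PCKS. In anti-GBM kidneys with vehicle, markers of stroma summed to 757 to 999.8 CPM against 264 to 372 CPM in healthy kidneys with vehicle, those of macrophages to 204 to 325 against 94.4 to 115 CPM, and those of injured tubule to 349.5 to 724 against 15.7 to 19.5 CPM. Proximal tubule markers summed to 7326 to 12164 CPM in the same diseased kidneys and 10785 to 14315 CPM in the healthy ones. In bulk tissue, fewer cells of a type and less RNA per cell cannot be told apart, and the part of these shifts in the results below was not tested.

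Levels differed widely among the members. Levels of different genes are compared per kilobase of exon (CPM per kb). In healthy C57BL/6 kidneys with vehicle, Igfbp7 stood highest at 878 ± 36.2 CPM per kb (SD, n = 4), followed by Igfbp4 at 246 ± 33.1. Igfbp3 (139.7, range 126 to 169) and Igfbp5 (132 ± 7.35) came next with overlapping ranges. Igfbp1 (6.15 ± 2.28), Igfbp6 (2.22 ± 3.76) and Igfbp2 (0.301 ± 0.12) were the low members, and each of these overlapped in range with its neighbour in the order. In healthy BALB/c kidneys with vehicle the order was the same at the top, with Igfbp7 at 1139 ± 23.5 and Igfbp4 at 216 ± 11.4 CPM per kb (n = 4), while Igfbp5 (135 ± 37.4) and Igfbp3 (96.9 ± 25.4) again overlapped. Igfbp1 reached 22 ± 4.36 CPM per kb there, apart from its neighbours in the order, and Igfbp2 (1.97 ± 2.07) and Igfbp6 (1.11 ± 0.455) overlapped at the bottom.

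PCKS had another order. Igfbp7 led again at 979 ± 157 CPM per kb in slices with vehicle (n = 4), but Igfbp3 came next at 292 ± 17.3, then Igfbp5 at 92.9 ± 19.1 and only then Igfbp4 at 38 ± 1.48, with no overlap between these neighbours. Igfbp4, which encodes an inhibitory IGFBP cleaved by PAPP-A, was at 155 to 202 CPM in all 8 slices and at 756 to 1681 CPM in all 30 kidneys of the in vivo experiments. Igfbp2 was at 5.74 to 34.6 CPM in the slices and at 0.239 to 14.4 CPM in the kidneys. Slices and kidneys were fitted separately and differ in strain, age, disease and culture, so no test was made between them.

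**Figure D1:**
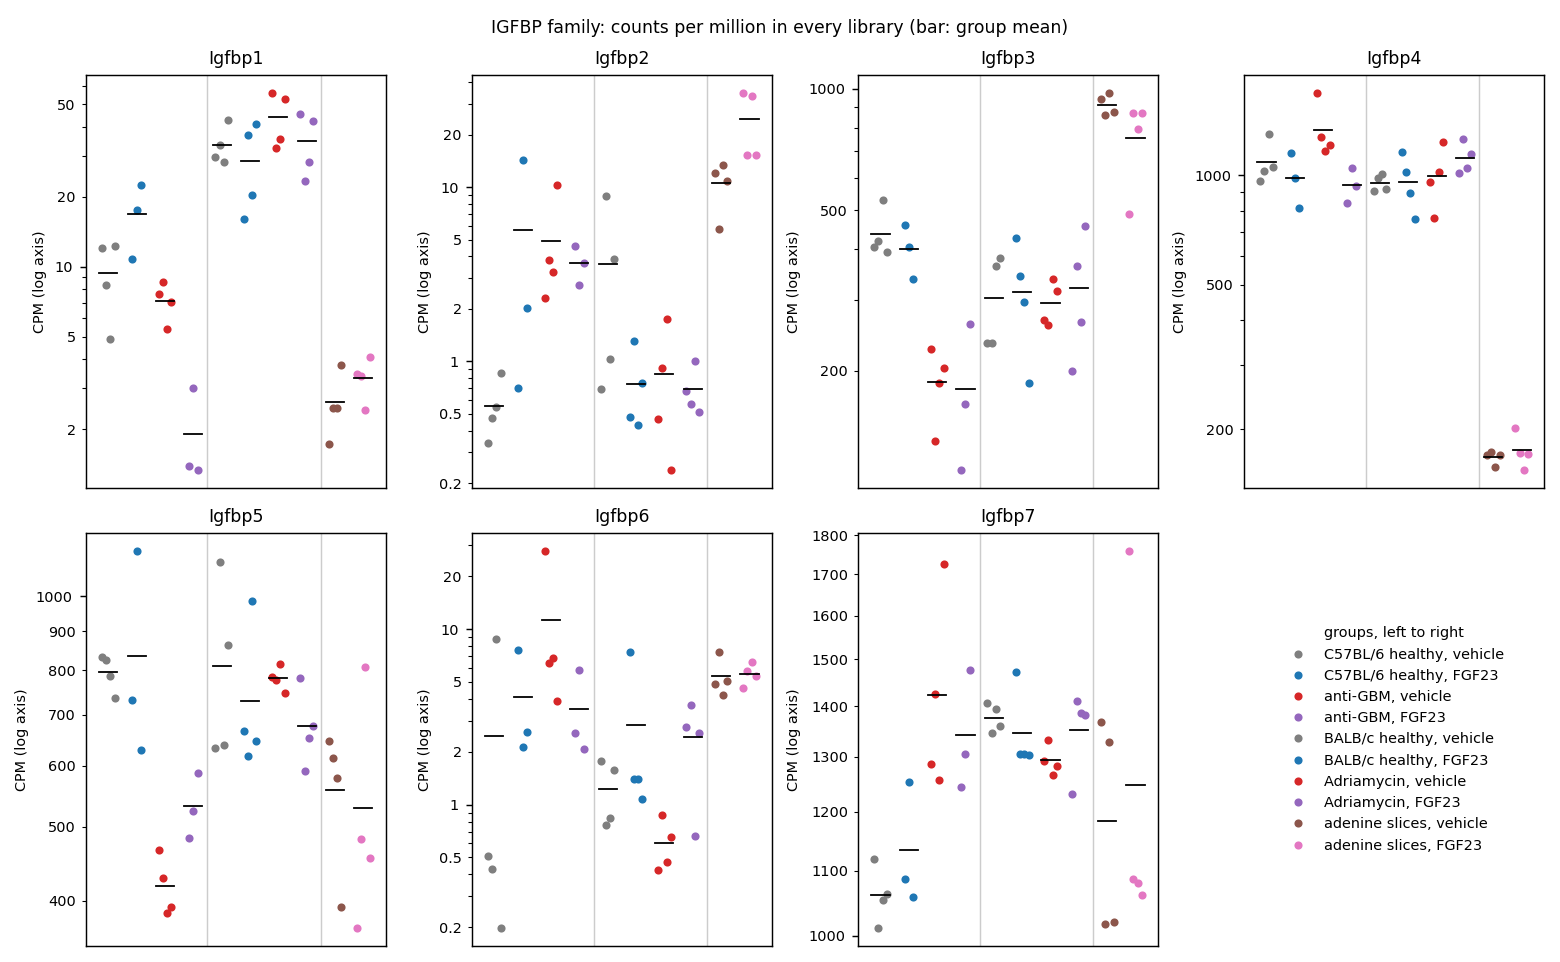
Each panel plots 1 member: CPM on a log axis for every library, with a bar at the group mean and the 10 groups from left to right in the order of the key; grey lines part the 3 experiments. Igfbp4 sits at 155 to 202 CPM in the slices and at 756 CPM or more elsewhere. Igfbp1 is lowest, at 1.34 to 3.00 CPM, in FGF23-treated anti-GBM kidneys, a range that overlaps the 1.72 to 4.07 CPM of the slices.

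In anti-GBM disease with vehicle, Igfbp3 and Igfbp5 fell and Igfbp2 and Igfbp7 rose against healthy kidneys with vehicle, so 4 of the 7 members passed the test (edgeR's quasi-likelihood test, adjusted p below 0.05). Of all 15859 genes tested, 39.8% passed, 19.4% higher and 20.4% lower, so a family of this size with 4 calls is near the background. The groups did not overlap for 4 of 7 members, against 35.2% of all genes. The median log2 fold change was 0.30 over the members and -0.013 over all genes.

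Igfbp3 was at 405, 419, 530.1 and 394 CPM in the 4 healthy kidneys with vehicle and at 227, 134, 187 and 204 CPM in the 4 anti-GBM kidneys. Every diseased kidney was below every healthy one. The log2 fold change was -1.22 ± 0.22 (SE; adjusted p = 0.000742), a level 2.33-fold lower, and it stayed between -1.28 and -1.07 when each library of the experiment was left out in turn. Igfbp5, which encodes a binding protein held in the extracellular matrix, was at 833, 826, 787 and 737 CPM in the healthy kidneys and at 466, 428, 386 and 393 CPM in the diseased ones, again without overlap. Its log2 fold change was -0.93 ± 0.15 (adjusted p = 0.000351), or 1.90-fold lower. Summed endothelial markers, whose cells are known to express both genes, were at 660.4, 641, 623 and 655 CPM in the healthy kidneys and at 523, 499, 606 and 703 CPM in the diseased ones. The sum was below that of every healthy kidney in 3 of the 4 diseased kidneys and above it in the other, and its part in the values of both members was not tested. Of the 7 endothelial markers, 1 was called lower (median log2 -0.09).

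Igfbp7 rose by the smallest amount of the 4. It was at 1119, 1012, 1054 and 1063 CPM in healthy kidneys and at 1287, 1425, 1257 and 1725 CPM in diseased ones, so the groups did not overlap although the change was only 1.34-fold (log2 0.42 ± 0.11, adjusted p = 0.00654). With size factors of the RLE method in place of TMM the value was 0.44. Igfbp2 showed the largest fold: 0.34, 0.475, 0.549 and 0.861 CPM in healthy kidneys, from 6 to 13 reads each, against 2.30, 3.80, 3.24 and 10.3 CPM in diseased ones. The log2 fold change was 3.13 ± 0.82 (adjusted p = 0.00826), 8.75-fold higher, and it was 2.53 (adjusted p = 0.0296) without mouse NTS8, the kidney at 10.3 CPM. That kidney also had the highest summed urothelial markers of its group, 15.4 CPM where the group median was 1.05 CPM, and the highest summed principal cell markers, 525 CPM with a median of 337 CPM; whether tissue of the pelvis or collecting duct was part of the difference was not tested.

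The other 3 members did not pass the test. Igfbp6, which binds IGF2 in preference to IGF1, was at 0.509, 0.428, 8.74 and 0.199 CPM in healthy kidneys and at 27.7, 6.37, 6.88 and 3.89 CPM in anti-GBM kidneys, where a single healthy mouse overlapped the diseased group. Its log2 fold change of 2.16 ± 0.91 (adjusted p = 0.0744) became 4.88 (adjusted p = 0.00115) without that mouse, NTS3, and 1.22 (adjusted p = 0.296) without NTS5, the diseased mouse at 27.7 CPM. NTS3 had 29.9 CPM of summed adipocyte markers against a group median of 4.67 CPM. The sum of NTS5, the kidney highest in Igfbp6, was 2.04 CPM. The part of fat around the kidney in these values was not tested. Igfbp4 had a log2 fold change of 0.30 ± 0.14 (adjusted p = 0.111), which was 0.44 (adjusted p = 0.030) without NTS3. Igfbp1 was at 12, 8.36, 4.89 and 12.3 CPM in healthy and 7.62, 8.56, 5.39 and 7.05 CPM in diseased kidneys, with a log2 fold change of -0.39 ± 0.31 (adjusted p = 0.343).

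In mice given FGF23, anti-GBM kidneys were compared with healthy kidneys that also had received FGF23, and Igfbp1, Igfbp3 and Igfbp5 fell while no member rose. These 3 of 7 calls stand beside 27.2% of all genes called, 12.7% lower and 14.5% higher. This comparison and the one with vehicle share no libraries, whereas each of them shares its groups with the comparisons of FGF23 and vehicle below. The median log2 fold change was -0.65 over the members and -0.017 over all genes.

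Igfbp1 differed most. It was at 10.8, 17.6 and 22.4 CPM in the 3 healthy kidneys with FGF23, from 231 to 365 reads, and at 1.39, 3.00 and 1.34 CPM in the 3 anti-GBM kidneys with FGF23, from 27 to 60 reads. The log2 fold change was -3.14 ± 0.39 (adjusted p = 8.53e-05), an 8.82-fold lower level, and it ran from -3.62 to -2.86 as each library was left out. Its neighbour Igfbp3 was at 459, 406 and 338 CPM in the healthy kidneys and at 114, 166 and 261 CPM in the diseased ones. The log2 fold change of Igfbp3, -1.16 ± 0.25 (adjusted p = 0.00407), lay beside -1.22 with vehicle, whereas that of Igfbp1 was -3.14 with FGF23 and -0.39 with vehicle.

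Igfbp5 was at 732, 1144 and 629 CPM in healthy and at 483, 524 and 588 CPM in anti-GBM kidneys with FGF23, a log2 fold change of -0.65 ± 0.17 (adjusted p = 0.0120). It was -0.36 without mouse NTS10, the healthy kidney at 1144 CPM, and did not pass without NTS13 (log2 -0.58, adjusted p = 0.0566). Beside the lower Igfbp3 and Igfbp5, summed endothelial markers were at 470, 515 and 578 CPM in the diseased kidneys and at 633, 705 and 595 CPM in the healthy ones, without overlap. Of the 7 endothelial markers, 1 was called lower (median log2 -0.27). Proximal tubule markers summed to 6163 to 8494 CPM and 10426 to 12277 CPM in the same groups, and the part of either in these values was not tested. Igfbp7 had a log2 fold change of 0.24 ± 0.12 (adjusted p = 0.160), Igfbp4 of -0.07 ± 0.16 (adjusted p = 0.801) and Igfbp6 of -0.25 ± 1.04 (adjusted p = 0.885). Igfbp2 overlapped widely, with 0.704, 14.4 and 2.02 CPM in healthy and 4.61, 2.75 and 3.66 CPM in diseased kidneys (log2 -0.65 ± 0.77, adjusted p = 0.576). The highest of these values was again NTS10, the mouse with 593 CPM of principal cell markers where the other 2 of its group had 277 and 279 CPM; without it the log2 fold change was 1.49 (adjusted p = 0.0990).

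**Figure D2:**
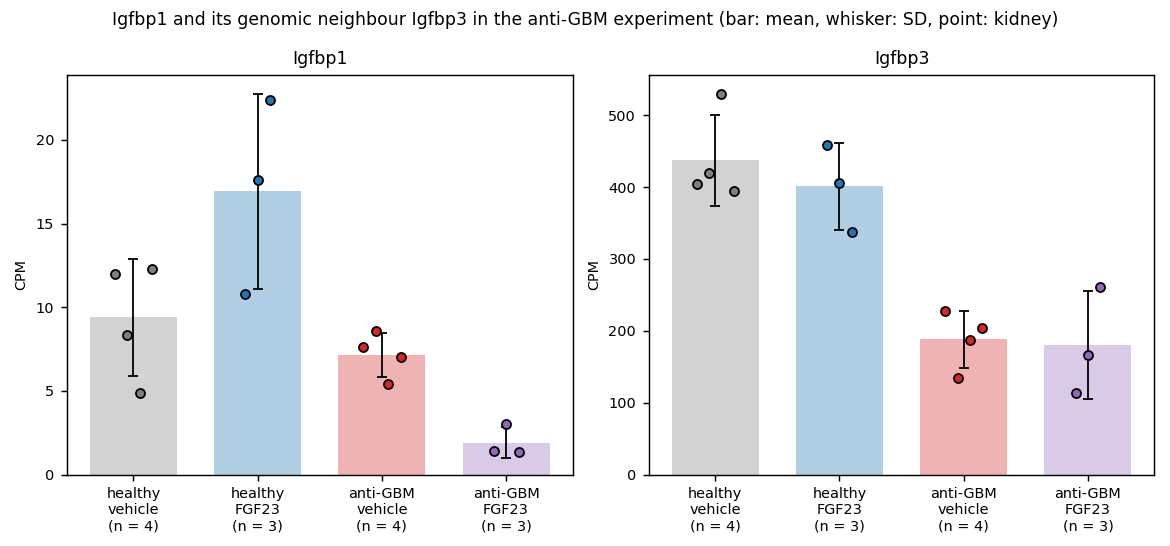
CPM of Igfbp1 (left) and Igfbp3 (right) in the 4 groups of the anti-GBM experiment; bars are means, whiskers SD and points single kidneys. Igfbp1 is at 1.91 ± 0.946 CPM in FGF23-treated anti-GBM kidneys and at 7.16 ± 1.33 to 16.9 ± 5.82 CPM in the other groups, while Igfbp3 is near 180 to 188 CPM in both diseased groups.

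The direct comparison of FGF23 with vehicle asks what the hormone changed within healthy or within diseased kidneys. In healthy C57BL/6 mice no member was called by edgeR or by DESeq2, and 0.0% of all genes were called by edgeR. At an unadjusted p below 0.05 there were 2 members, Igfbp1 and Igfbp2, and 4.34% of all genes. Igfbp1 was at 10.8 to 22.4 CPM with FGF23 and 4.89 to 12.3 CPM with vehicle (log2 0.85 ± 0.32, adjusted p = 0.996). Igfbp2 had a log2 difference of 3.38 ± 0.85 (adjusted p = 0.996) that was 1.25 without NTS10. It was called (adjusted p = 0.0180) when the p-values of all 5 comparisons of the experiment were adjusted together. Under that setting 74 genes were called in this comparison. The study also adjusted its contrasts together, but its contrasts were 3: disease, treatment and their interaction. The other 5 members lay between -0.14 (Igfbp4) and 0.71 (Igfbp6) on the log2 scale, the last being 3.41 without NTS3.

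In anti-GBM mice edgeR called no member with FGF23, where it called 0.24% of all genes. DESeq2 called 1 member, Igfbp1, and 153 genes in all. Igfbp1 was at 1.39, 3.00 and 1.34 CPM with FGF23 and at 7.62, 8.56, 5.39 and 7.05 CPM with vehicle, so the groups did not overlap. The log2 difference was -1.90 ± 0.38 (adjusted p = 0.0626), and DESeq2 gave -1.90 with an adjusted p of 6.55e-05. With edgeR the adjusted p ran from 0.0372 without NTS3 to 0.397 without NTS13, and the log2 difference from -2.38 to -1.70. It passed with all comparisons adjusted together (adjusted p = 0.00452), where 298 genes passed. It also passed without a filter on low counts (adjusted p = 0.00359), where 60 genes passed.

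Of the 7 members, 3 had an unadjusted p below 0.05 here, against 12.6% of all genes, and the same number had groups that did not overlap, against 9.22% of all genes without overlap. Besides Igfbp1 these were Igfbp4 and Igfbp5, in opposite directions. Igfbp4 was at 837, 1045 and 937 CPM with FGF23 and at 1681, 1276, 1169 and 1211 CPM with vehicle (log2 -0.51 ± 0.15, adjusted p = 0.291, or 0.0498 with all comparisons adjusted together). Igfbp5 was at 483, 524 and 588 CPM with FGF23 and 466, 428, 386 and 393 CPM with vehicle (log2 0.35 ± 0.16, adjusted p = 0.391), all 3 of the former above all 4 of the latter. Summed stroma markers did the same, at 1063 to 1340.3 CPM with FGF23 and 757 to 999.8 CPM with vehicle, although none of the 6 markers was called, and their part in the Igfbp5 values was not tested. Igfbp3 differed by -0.06 ± 0.23, Igfbp7 by -0.08 ± 0.12, Igfbp2 by -0.39 ± 0.73 and Igfbp6 by -1.69 ± 0.98 on the log2 scale, none with an adjusted p below 0.468.

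Whether FGF23 acted differently in healthy and diseased mice was tested with the interaction term. For Igfbp1 it was -2.76 ± 0.50 on the log2 scale, that is, FGF23 went with a level 6.75-fold lower relative to vehicle in anti-GBM than in healthy kidneys, with an adjusted p of 0.0717. DESeq2 gave -2.77 with an adjusted p of 2.76e-05. The edgeR adjusted p was 0.00227 with all comparisons adjusted together (200 genes called) and 0.00204 without a filter (29 genes called). By edgeR 0 of 7 members and 0.0315% of all genes were called, with 2 members, Igfbp1 and Igfbp2, and 8.3% of all genes at an unadjusted p below 0.05. DESeq2 called 1 member, Igfbp1, and 44 genes in all. The Igfbp2 interaction of -3.78 ± 1.13 (adjusted p = 0.418, or 0.0461 adjusted together) was -1.64 without NTS10. Summed hepatocyte markers (Alb and Apoa2), listed because Igfbp1 is a liver gene above all, were at 5.33 to 7.18 CPM in anti-GBM kidneys with FGF23, 6.47 to 8.89 with vehicle, 7.66 to 14.6 in healthy kidneys with FGF23 and 10.8 to 24.7 with vehicle; their part in the Igfbp1 values was not tested.

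**Figure D3:**
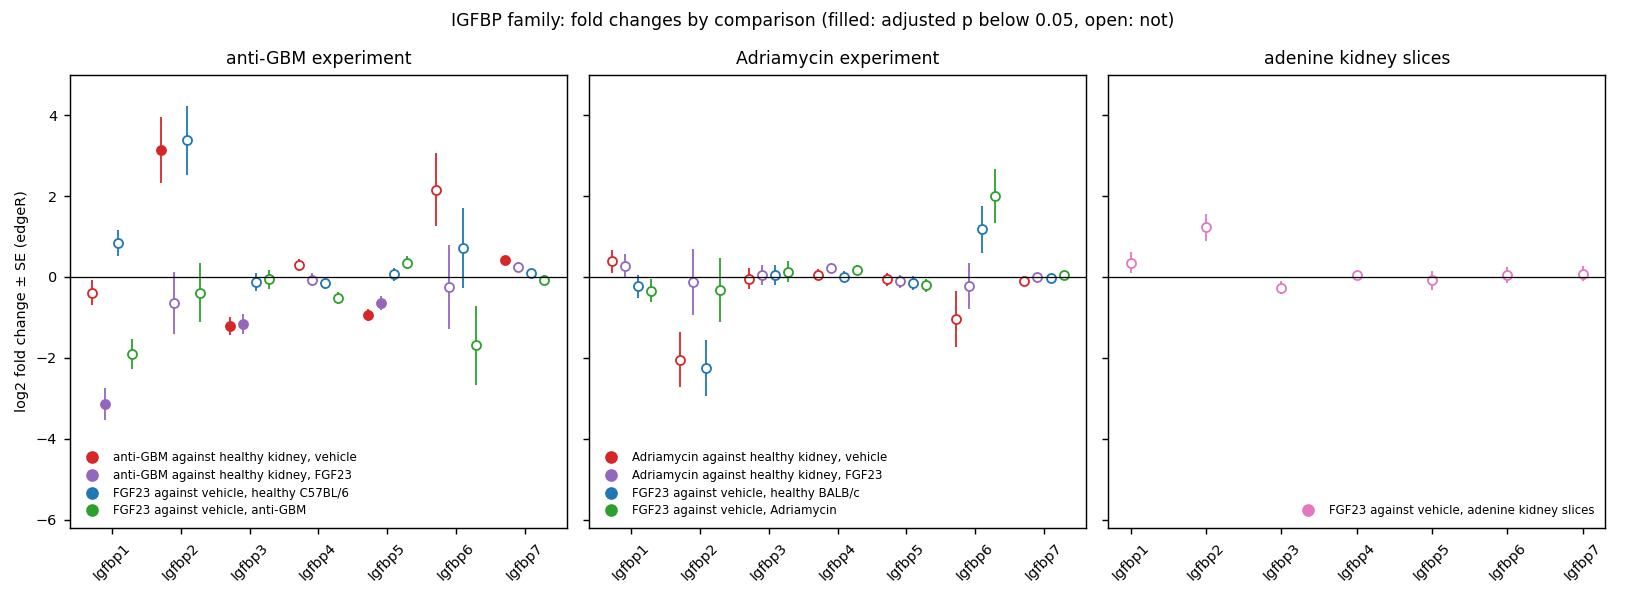
Log2 fold change ± SE of each member (x axis) in the 4 pairwise comparisons of each in vivo experiment and in the slices; filled points had an adjusted p below 0.05 by edgeR and open points did not. The 7 filled points are all disease comparisons of the anti-GBM experiment, from -3.14 for Igfbp1 with FGF23 to 3.13 for Igfbp2 with vehicle.

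In the Adriamycin experiment no member was called by edgeR in any of the 5 comparisons. DESeq2 called none either, although it gave no adjusted p for Igfbp2 and Igfbp6 in healthy mice with FGF23. Adriamycin against healthy kidney with vehicle had 0.331% of all genes called. At an unadjusted p below 0.05 it had 1 member, Igfbp2, and 8.27% of all genes. With FGF23 the same comparison had 0.699% called, and 0 members and 12.7% of all genes at that level. FGF23 against vehicle in healthy BALB/c mice had 0.0% called, and 1 member (Igfbp2) and 6.69% of all genes at that level. In Adriamycin mice it had 0.0375% called, and 1 member (Igfbp6) and 5.69% of all genes at that level. The interaction of FGF23 and Adriamycin had 0.0% called, and 0 members and 5.11% of all genes at that level.

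The abundant members moved little. Igfbp7 ran from 1231 to 1473 CPM over all 16 kidneys, a range of 1.20-fold, and its log2 fold changes in the 4 pairwise comparisons lay between -0.09 and 0.06, with SE of 0.06. With vehicle it was at 1266 to 1333 CPM in Adriamycin and 1346 to 1407 CPM in healthy kidneys, a log2 difference of -0.09 ± 0.06 (adjusted p = 0.728). Igfbp3, at 187 to 457 CPM, had log2 fold changes of -0.04 to 0.13 with SE of 0.25 to 0.26. Igfbp4 (756 to 1258 CPM) had changes of 0.01 to 0.22 and Igfbp5 (591 to 1107 CPM) of -0.21 to -0.06.

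Igfbp1 was at 16.1 to 55.8 CPM over the 16 BALB/c kidneys and at 1.34 to 22.4 CPM over the 14 C57BL/6 kidneys, a difference between experiments that was not tested. Within the Adriamycin experiment its groups overlapped. It was at 29.7, 33.4, 28.2 and 43.0 CPM in healthy kidneys with vehicle and at 55.8, 32.5, 35.6 and 52.6 CPM in Adriamycin kidneys with vehicle (log2 0.39 ± 0.28, adjusted p = 0.785). With FGF23 the values were 16.1, 36.8, 20.3 and 41.3 CPM in healthy and 45.6, 23.3, 28.2 and 42.6 CPM in Adriamycin kidneys. FGF23 against vehicle gave -0.23 ± 0.28 in healthy and -0.34 ± 0.28 in Adriamycin mice, and the interaction was -0.12 ± 0.40 (adjusted p = 1).

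The scarce members had the wide values. Igfbp2 was at 0.696, 8.95, 1.03 and 3.85 CPM in healthy kidneys with vehicle and at 0.239 to 1.76 CPM in the other 12. Against healthy kidneys with vehicle, the log2 fold change was -2.04 ± 0.68 (adjusted p = 0.351) in Adriamycin kidneys with vehicle and -2.24 ± 0.69 (adjusted p = 0.688) in healthy kidneys with FGF23. These were -1.08 and -1.28 without mouse Ad2, the kidney at 8.95 CPM, which also had the highest summed urothelial (11.2 CPM) and principal cell (731 CPM) markers of its group. Igfbp6 was at 0.421, 0.872, 0.473 and 0.656 CPM in Adriamycin kidneys with vehicle and at 2.75, 3.69, 0.666 and 2.57 CPM in those with FGF23 (log2 2.00 ± 0.66, adjusted p = 0.748), where 1 treated kidney overlapped the untreated. In healthy BALB/c kidneys Igfbp6 was at 0.761 to 1.76 CPM with vehicle and at 1.08 to 7.44 CPM with FGF23, the last value in mouse Ad9, which had the highest summed adipocyte markers of all libraries (70.0 CPM); without it the log2 difference of 1.18 ± 0.58 was 0.05. Ad10 of the same group, with an adipocyte sum of 64.1 CPM, had an Igfbp6 of 1.39 CPM. The part of fat, pelvis or collecting duct tissue in these Igfbp2 and Igfbp6 values was not tested.

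**Figure D4:**
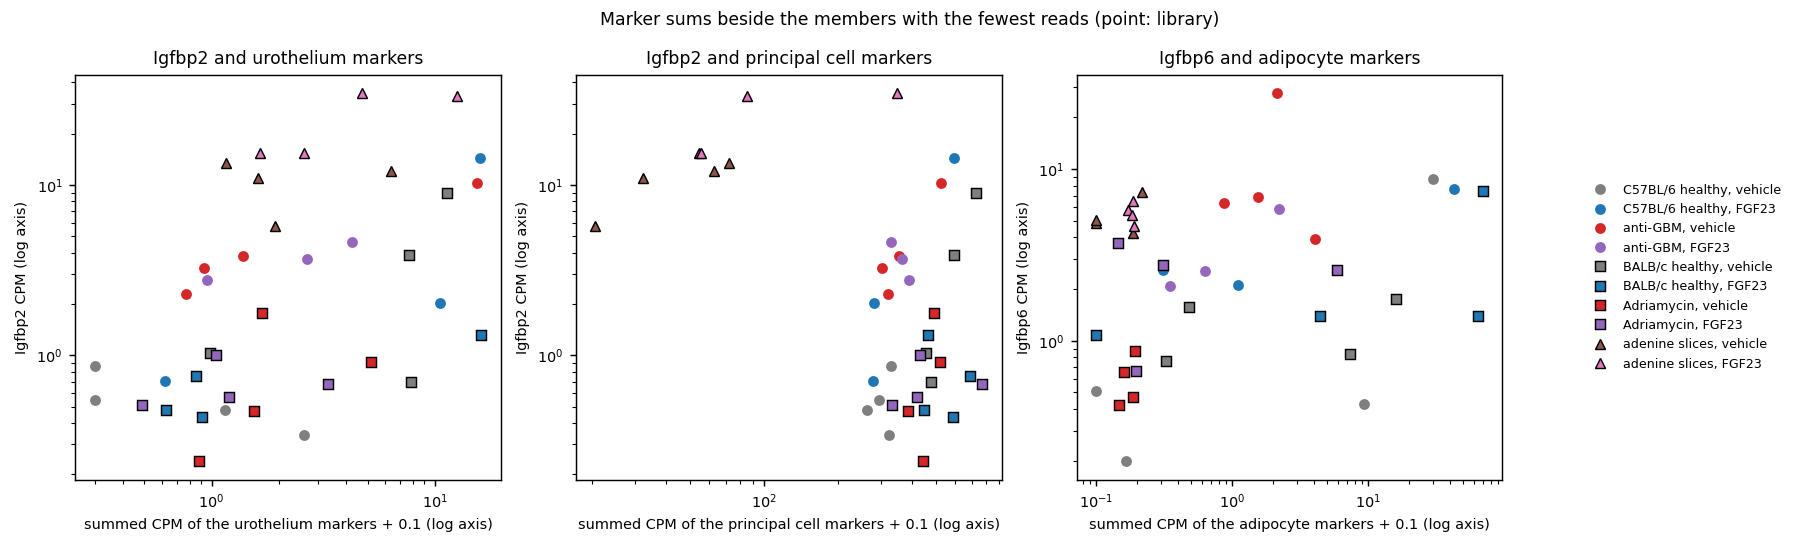
CPM of Igfbp2 against the summed CPM of urothelial and of principal cell markers, and of Igfbp6 against that of adipocyte markers, both axes logarithmic with 0.1 added to the sums; each point is a library. The kidneys highest in Igfbp2 (14.4, 10.3 and 8.95 CPM) have urothelial sums of 15.9, 15.4 and 11.2 CPM. A kidney with a sum of 16.1 CPM has 1.31 CPM of Igfbp2, and the part of such tissue was not tested.

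In PCKS of adenine nephropathy, edgeR and DESeq2 called no member with FGF23, and edgeR called 0.0% of all 15090 genes. Igfbp2 was the 1 member with an unadjusted p below 0.05, where 4.89% of all genes had one, and the 1 member whose groups did not overlap, where 3.17% of all genes did not overlap. It was at 34.6, 15.3, 33.3 and 15.4 CPM with FGF23, from 185 to 385 reads, and at 12.1, 5.74, 13.5 and 10.9 CPM with vehicle, from 98 to 162 reads. The log2 difference was 1.23 ± 0.33 (adjusted p = 0.849), a 2.34-fold higher level, and it ran from 1.02 to 1.41 as each slice was left out. Slices F2 and F4 with FGF23 were more alike in counts than other pairs, as were V1 and V3 with vehicle. The slices of a group may therefore not be independent. Summed principal cell markers were at 347, 54.3, 85.2 and 55.7 CPM in the slices with FGF23 and at 62.7, 20.6, 72.3 and 32.3 CPM in those with vehicle. Ighv2-2, an antibody gene segment of B-lineage cells, was picked from all genes after its counts were seen. It had 10 to 96 reads in each slice with vehicle and 0 in each with FGF23. Being picked in these same slices, it is a description and no test of a donor difference. The part of principal cells or of a difference between donor mice in the Igfbp2 values was not tested. Since the labels do not say which slices share a mouse, FGF23 and donor cannot be told apart in these values.

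The other 6 members did not pass the test in PCKS. Igfbp1, which was scarce at 1.72 to 4.07 CPM, had a log2 difference of 0.35 ± 0.26 (adjusted p = 0.849). Igfbp3 was at 489.6, 869, 795 and 869 CPM with FGF23 and at 943, 859, 974 and 876 CPM with vehicle (log2 -0.27 ± 0.16, adjusted p = 0.849), and the lowest value was the slice F1, without which the difference was -0.11. F1 also had the highest Igfbp7, 1758 CPM, where the other 7 slices were at 1018 to 1368 CPM. Igfbp4, Igfbp5, Igfbp6 and Igfbp7 differed by 0.06 ± 0.09, -0.08 ± 0.23, 0.04 ± 0.20 and 0.08 ± 0.18 on the log2 scale.

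Around the family, the genes of IGF supply and IGFBP cleavage were followed in lists that were also written with earlier results known. Of 8 ligand and receptor genes, 6 passed the filter: the ligand Igf2 had 1 to 5 reads in each kidney of the anti-GBM experiment and Ins2 at most 1. In anti-GBM disease with vehicle, 3 of the 6 fell and none rose (median log2 -0.38), where 20.4% of all genes were called lower. These were Igf2r, which clears IGF2 (-0.42 ± 0.12, adjusted p = 0.0119), the insulin receptor Insr (-0.34 ± 0.13, adjusted p = 0.0456) and Igfals, a component of the circulating IGF complex (-0.52 ± 0.18, adjusted p = 0.0344). The ligand Igf1, named although it was not called, had a value of -0.45 ± 0.18 (adjusted p = 0.0654). In disease with FGF23 none of the 6 was called (median -0.13), where 27.2% of all genes were called.

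Of 6 genes of IGFBP proteases and their inhibitors, 4 rose and none fell in anti-GBM disease with vehicle (median log2 0.89), where 19.4% of all genes were called higher. They were Pappa, the pappalysin that cuts IGFBP4 (0.92 ± 0.29, adjusted p = 0.0217), its inhibitors Stc1 (0.86 ± 0.26, adjusted p = 0.0178) and Stc2 (1.29 ± 0.21, adjusted p = 0.000402), and the metalloprotease Adam12 (1.22 ± 0.23, adjusted p = 0.00116). The pappalysin gene Pappa2 (0.48 ± 0.34, adjusted p = 0.276) and the serine protease gene Htra1 (0.23 ± 0.10, adjusted p = 0.0731) did not pass. With FGF23, where 14.5% of all genes were called higher, 3 of the 6 rose and none fell (median 1.02): Pappa at 1.25 ± 0.34, Stc2 at 1.34 ± 0.24 and Adam12 at 2.00 ± 0.27. Igfbp4, the known target of Pappa, was not called in either comparison.

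Of 6 IGFBP-related genes, 5 were tested, and 2 rose and 1 fell in anti-GBM disease, with vehicle and with FGF23 alike. Of all genes, 39.8% were called with vehicle and 27.2% with FGF23. The matricellular genes Ccn1 (1.40 ± 0.24, adjusted p = 0.000478) and Ccn2 (1.43 ± 0.24, adjusted p = 0.000512) rose with vehicle, and Esm1, a gene of endothelial tip cells and glomerular endothelium, fell by 1.59 on the log2 scale (SE 0.18, adjusted p = 3.09e-05). With FGF23 the values were 1.29 ± 0.27, 1.31 ± 0.28 and -1.61 ± 0.21.

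Of 13 genes of growth hormone and insulin or IGF signalling, 2 rose and 2 fell with vehicle (median log2 0.11), where 39.8% of all genes were called. The kinase gene Akt1 (0.45 ± 0.07, adjusted p = 0.000413) and the transcription factor gene Foxo3 (0.47 ± 0.16, adjusted p = 0.0320) rose. Pik3ca (-0.53 ± 0.12, adjusted p = 0.00297) and the growth hormone receptor Ghr (-0.63 ± 0.19, adjusted p = 0.0160) fell. With FGF23, 4 rose and 1 fell (median 0.08), where 27.2% of all genes were called. The 4 were led by Akt1 (0.43 ± 0.08, adjusted p = 0.00229) and included Grb10 (0.55 ± 0.13, adjusted p = 0.00581) and Pik3r1 (0.54 ± 0.13, adjusted p = 0.00793). Pik3ca was again lower (-0.51 ± 0.14, adjusted p = 0.0136). Irs2, an insulin receptor substrate named after its values were seen, had log2 values of 1.25 ± 0.47 for FGF23 in healthy mice (adjusted p = 0.996), -0.47 ± 0.48 for FGF23 in anti-GBM mice (adjusted p = 0.688) and -1.45 ± 0.51 for disease with FGF23 (adjusted p = 0.0503), none of them called. In the other 9 comparisons, edgeR called no gene of the 4 lists.

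**Figure D5:**
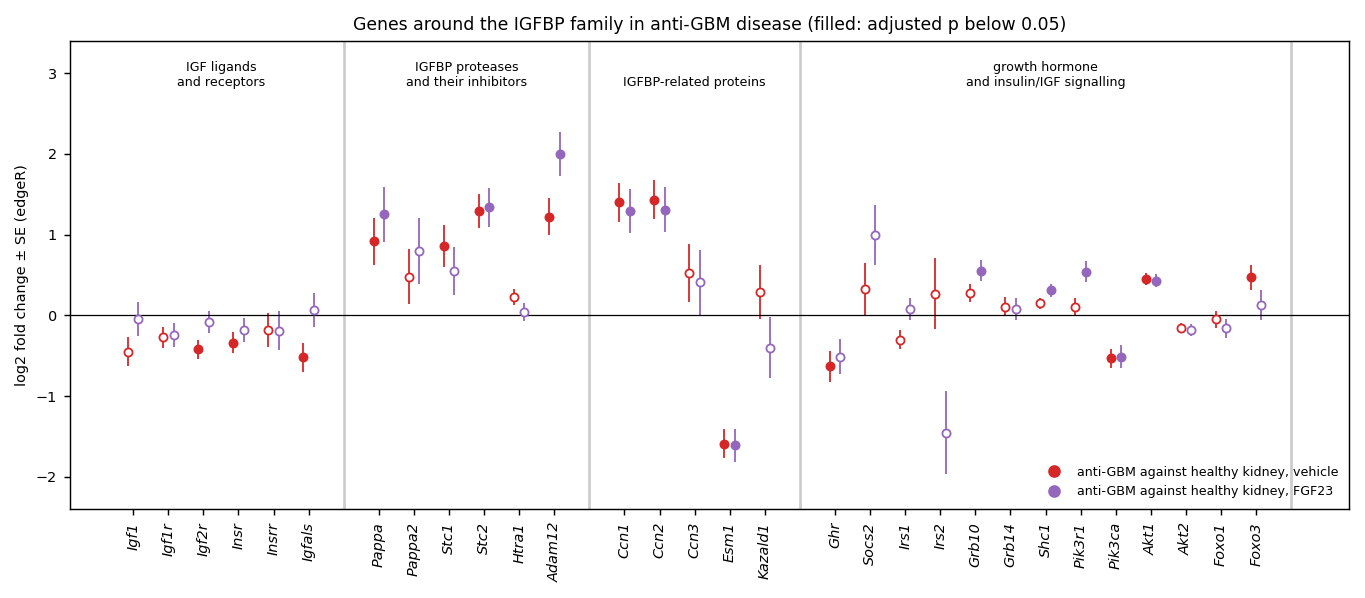
Log2 fold change ± SE of the tested genes of the 4 lists in anti-GBM against healthy kidneys, with vehicle and with FGF23; filled points passed an adjusted p of 0.05. Pappa, Stc2, Adam12, Ccn1 and Ccn2 are filled and above 0 in both comparisons and Esm1 is filled and below 0 in both.

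The 2 genes most like each member were sought among the 15243 genes tested in both in vivo experiments, by Pearson's r of log2 CPM over the 30 kidneys after the mean of each experiment was subtracted. The kidneys share conditions, region and libraries, so r is a description. Igfbp1 went with Erbb3 (r = 0.87) and Ctdsp2 (0.84), and Igfbp2 with Pdgfa (0.89) and Scx (0.88). Igfbp3 went with Kdr (0.88), the VEGF receptor of endothelium, and Adi1 (0.86). Igfbp4 went with Shisa3 and Gpx3 (both 0.83), and Igfbp5 with Cab39l (0.85) and Pias1 (0.82). Igfbp6 went with Serpinf1 and Cpxm2 (both 0.87), and Igfbp7 with Cuedc2 (0.91) and Eva1b (0.89). Ctdsp2, Pdgfa, Shisa3, Cab39l, Serpinf1, Cpxm2 and Cuedc2 were still among the 2 nearest genes when the mean was not subtracted, and the other genes were not. Within the Adriamycin experiment alone r lay between 0.48, for Adi1 and Cuedc2, and 0.94 for Gpx3. The r of Kdr there was 0.63, of Pias1 0.50, and of Erbb3, Pdgfa, Scx and Shisa3 0.80 to 0.87. Among the members themselves r ran from -0.58 for Igfbp5 with Igfbp7 to 0.57 for Igfbp3 with Igfbp5, the pair that fell together in anti-GBM disease.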

How the data were processed

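The authors sequenced stranded mRNA libraries of 38 kidney samples and deposited raw counts per gene; per the labels, reads were processed with bcl2fastq 2.20.0, FastQC 0.11.8, STAR 2.7.9a and featureCounts 1.5.1 on GRCm38. Nothing else was done to the deposited counts before use. Each experiment was fitted separately with all its groups in edgeR 4.0.16 (limma 3.58.1, R 4.3.3), with TMM scaling, filterByExpr at a minimum count of 10, the quasi-likelihood test and Benjamini-Hochberg adjustment within each comparison. An adjusted p below 0.05 was a call. Genes tested were 15859, 16020 and 15090 in the anti-GBM, Adriamycin and PCKS experiments, at 11186925 to 27583911 counts per library, which bounds the precision for genes with few reads. A log2 CPM used a prior count of 2. Exon lengths for CPM per kb came from the GENCODE vM21 annotation. In vivo columns carry a mouse code without group or replicate number, so groups were read from the column headers of the study's own table of each experiment, and mice are named by code. The column of 1 anti-GBM mouse with FGF23 repeats the code of NTS4, a healthy mouse, and is called NTS14 here after its running number. The labels number the slices as biological replicates but do not say which slices share a mouse, and p-values for PCKS measure the spread between slices. Counts of slices F2 and F4 differed least within a group (chi-square per degree of freedom over genes 2.02), then those of V1 and V3 (2.91). The other slice pairs within a group were at 9.17 to 39.0. Whether the alike slices share a mouse was not tested, and the p-values treat all slices of a group as independent.

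The members and the gene lists were chosen with earlier results of these data known. All 7 members were named in every comparison. Of each list, at most 4 called genes per comparison were named, by smallest p, and cell type markers were given where they moved with a member; the 2 genes most like each member were taken by Pearson's r. Exceptions are stated where they occur. A gene of the signalling list is not reported here and was left out of its counts and median. Scripts were tested on simulated data. Alternatives were DESeq2 1.42.0, RLE size factors, another filter or none, another prior count (0.5), only the groups compared, a robust fit, a fold cutoff, joint adjustment over the comparisons of an experiment, a replicate block for PCKS, and leaving out each library.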

Additional observations from a re-analysis of the deposited data

Results flagged for a closer look

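Of 56 sets of 4 values, 1 for each member in each group of 4 libraries, 7 held a value far from the other 3. Groups of 3 were not examined. The rule flags about 1 in 20 sets by chance where values are independent and normally spread. The members share libraries and some had few reads, so the 7 were not tested against that rate. Igfbp6 had 3 of these values: 27.7 CPM in the anti-GBM kidney NTS5 with vehicle, 8.74 CPM in the healthy kidney NTS3 with vehicle, and 7.44 CPM in the healthy BALB/c kidney Ad9 with FGF23. Igfbp7 also had 3: 1473 CPM in Ad9, which was high, 1231 CPM in the FGF23-treated Adriamycin kidney Ad13, which was low, and 1758 CPM in the FGF23-treated slice F1, which was high. Igfbp5 was high at 984 CPM in the healthy BALB/c kidney Ad11 with FGF23.

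Some members had values of opposite sign in different experiments. Of these values only the 3.13 of Igfbp2 and the 0.42 of Igfbp7 in anti-GBM disease passed the test, and none of the differences was tested, since strain, sex, disease and treatment differ as well. In disease against healthy kidney with vehicle, the log2 values were 3.13 (anti-GBM) and -2.04 (Adriamycin) for Igfbp2, 2.16 and -1.04 for Igfbp6, and 0.42 and -0.09 for Igfbp7. For FGF23 against vehicle, Igfbp2 was at 3.38 in healthy C57BL/6 and -2.24 in healthy BALB/c mice. In diseased mice FGF23 went with -0.51 for Igfbp4 in anti-GBM and 0.17 in Adriamycin disease, and with -1.69 and 2.00 for Igfbp6. Igfbp2 was at -0.39 with FGF23 in anti-GBM kidneys and at 1.23 in the slices.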

How the results depend on the processing

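No member changed direction with a call under any alternative run. In anti-GBM against healthy kidney with vehicle, 2 members were called when an absolute log2 fold change above 1 was also required. In FGF23 against vehicle, healthy C57BL/6 mice gave 1 call (Igfbp2) when p was adjusted jointly over the comparisons of the experiment, where 74 genes were called. In anti-GBM mice the same comparison gave 1 call with DESeq2 (Igfbp1), 2 with joint adjustment (Igfbp1 and Igfbp4) and 1 without a filter on low counts (Igfbp1), and 0 to 1 as each library was left out, the call being Igfbp1 without NTS3. The interaction of FGF23 and anti-GBM disease gave 1, 2 and 1 calls under the same first 3 settings, Igfbp1 in each and Igfbp2 with joint adjustment. The cause was not tested. All genes called ran from 12 to 298 for FGF23 in anti-GBM mice (38 as reported) and from 0, as single libraries were left out, to 200 for the interaction (5 as reported). Igfbp5 in anti-GBM disease with FGF23 lost its call when only the groups compared were fitted (log2 -0.63, adjusted p = 0.0593), and Igfbp6 in anti-GBM disease with vehicle gained one without a filter (log2 2.19, adjusted p = 0.0291). With at least 10 reads required in every library, Igfbp2 and Igfbp6 were not tested in vivo. Mice of the in vivo experiments were allocated at random to FGF23 or vehicle, so there were no pairs to fit. For PCKS an edgeR fit with a replicate block called 0 members and gave Igfbp2 an adjusted p of 0.263. Same-numbered slices correlated at 0.11, 0.10, -0.11 and 0.11. Vehicle slices 1, 2 and 4 correlated best with the FGF23 slice of their own number, and slice 3 did not. Whether the numbers are pairs was not tested, and the main fit did not take them as pairs. Igfbp2 and Igfbp6 had as few as 4 and 3 reads in a kidney, which limits what these libraries can show for them.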
